A study of Mus musculus with 20 samples.

Results

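The genes followed here encode proteins that carry fatty acids into cells and hold them there. They are 5 cytosolic fatty acid binding proteins (Fabp1, Fabp2, Fabp4, Fabp5 and Fabp7), the membrane receptor Cd36 and 4 fatty acid transport proteins of a solute carrier family (Slc27a1, Slc27a2, Slc27a4 and Slc27a5). All probe sets whose symbol in the platform annotation is exactly one of these names were taken, which gave 18 of the 45037 probe sets of the table and 10 of its 18193 genes. Cd36 has 3 probe sets, Fabp4 has 4, Fabp1, Fabp5 and Slc27a1 have 2 each, and the other 5 genes have 1.

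Long-chain fatty acids are poorly soluble in water and are bound to proteins on both sides of the cell membrane. Cd36 takes up fatty acids and oxidised lipoproteins at the surface, the transport proteins couple entry to the formation of acyl-CoA, and the binding proteins deliver fatty acids to oxidation, to storage or to nuclear receptors. In hepatocytes the abundant forms are known to be Fabp1, Slc27a2 and Slc27a5, whereas Cd36, Fabp4 and Fabp5 are better known from adipocytes, capillary endothelium, macrophages or skin, and Fabp7 from brain and from resident liver macrophages.

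Liver RNA came from male mice of the same age in 4 groups of 5: wild type C57BL/6 mice (WT, PXR+/+) and mice lacking the pregnane X receptor in the whole body (PXR-KO, PXR-/-), each given vehicle or CMP013. CMP013 is a small molecule inhibitor of the protease BACE1 and was given by oral gavage at 150 mg/kg once a day, with livers taken at 96 h after a short fast. The source label of the knockout animals names the C57BL/6NTac line, so the lost receptor and the line the knockout is kept on cannot be told apart. Each animal was hybridised to its own Affymetrix mouse array, and the deposited value compares its signal with the average of the 5 vehicle mice that share its genotype, as a ratio. All values below are log2 of that ratio, so they are not levels, and neither 2 genes nor the vehicle groups of the 2 genotypes can be ranked with them. The array medians lay between -0.027 and 0.012, and no pair of arrays was a copy (highest correlation 0.593). Over the 18 probe sets, the mean vehicle ratio was 0.916 to 1.03 in WT mice but 0.803 to 1.07 in PXR-KO mice. Ratios to the plain average of the vehicle animals would give 1, so some deposited ratios do not rest on exactly that average. Because whole liver was used, fewer cells of a type and less RNA per cell cannot be told apart. For the same reason that levels are missing, the label liver was not checked by the levels of its markers. Of 8 measured hepatocyte markers, 1 (Fgb) fell in WT mice and 0 passed in PXR-KO mice by limma (1 at an unadjusted p under 0.05). The mean log2 ratio of the 8 was -0.23 to -0.04 in treated and -0.08 to 0.11 in vehicle WT animals. In PXR-KO animals this mean was -0.18 to -0.09 with CMP013 and -0.13 to 0.11 with vehicle. Earlier results of these data named 4 vehicle animals that stand apart, WT replicates 3 and 4 and PXR-KO replicates 2 and 4. The counts of the 18 probe sets called by limma are given with and without them. The counts of groups that do not overlap, of genes in lists and of markers use all animals.

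CMP013 lowered 4 of the 18 probe sets in WT mice and raised none of them (limma, Benjamini-Hochberg adjusted p under 0.05; 11 of 18 at an unadjusted p under 0.05 in either direction). They belong to Fabp1, Fabp5, Slc27a2 and Slc27a4. Over all 45037 probe sets, 14.4% were called in WT mice, with 6.72% lower and 7.67% higher. The median difference over the 18 probe sets was -0.19, beside -0.01 over all probe sets, and 12 of the 18 were negative. Without the 4 vehicle animals only 1 of the 18, Slc27a2, was called in WT mice (adjusted p = 0.0305), and with quantile-normalised ratios 0 of 18 were (8 at an unadjusted p under 0.05). Calls over the whole table also went down under these settings, from 6480 to 3308 and 1773.

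In PXR-KO mice 3 of the 18 probe sets were called, both probe sets of Fabp5, which fell, and Fabp7, which rose (9 of 18 at an unadjusted p under 0.05). The background in PXR-KO mice was 3.65% of all probe sets, 1.54% lower and 2.12% higher. The same 3 probe sets passed the test of the difference between the responses, taken throughout as WT minus PXR-KO, where 11.0% of all probe sets were called, 5.47% with a positive and 5.49% with a negative difference. Both counts of 3 stayed the same without the 4 vehicle animals, while with trend and robust variances no probe set of the table passed in PXR-KO mice (adjusted p = 0.0536 for these 3). The other 15 did not pass that test, so a call in one genotype and not in the other is not shown to be a difference for them.

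**Figure D1:**
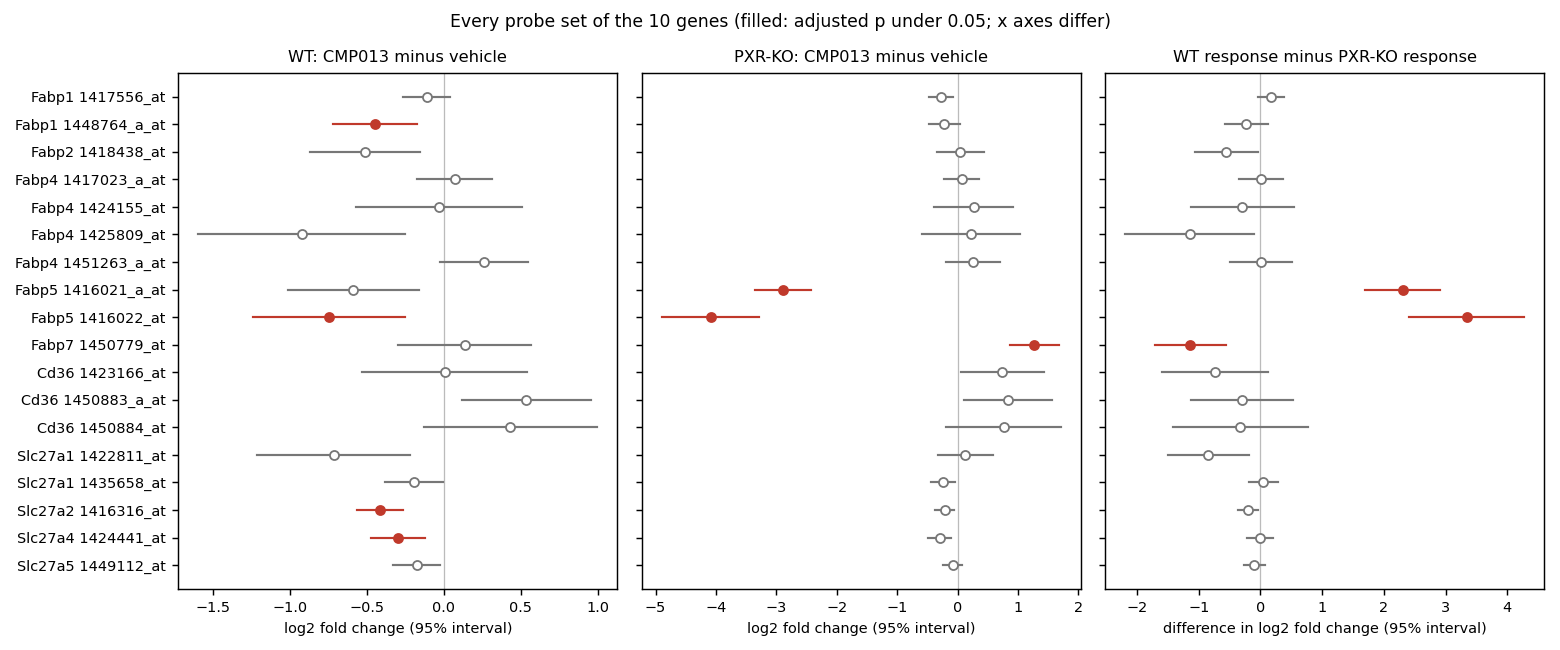
Difference between CMP013 and vehicle animals in log2 ratio (x axes, which differ in range) for each of the 18 probe sets, in WT mice, in PXR-KO mice and as WT response minus PXR-KO response. Points are limma estimates, bars are 95% intervals, and filled points have an adjusted p under 0.05; the Fabp5 probe sets stand far below the other genes in PXR-KO mice, at -2.89 and -4.09.

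Fabp5, the binding protein first described in epidermis, showed the largest differences among the 18 in PXR-KO mice and between the responses, while in WT mice the largest estimate was that of a Fabp4 probe set (1425809_at, -0.92), which did not pass. Its leading probe set, 1416021_a_at (the one with the smaller spread among vehicle animals), read -3.27, -3.13, -3.06, -2.70 and -2.29 in the 5 treated PXR-KO animals. The 5 PXR-KO vehicle animals read -0.02, -0.42, -0.15, 0.27 and 0.33. Every treated PXR-KO animal therefore lay below every vehicle animal of that genotype.

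In WT mice the treated animals read -0.36, -0.71, -0.37, -0.39 and -1.10 for the same probe set. The WT vehicle animals read 0.01, 0.32, 0.01, 0.18 and -0.51, so vehicle replicate 5 lay within the treated range and the groups overlapped. The difference was -2.89 ± 0.21 in PXR-KO mice (SE, n = 5 per group, adjusted p = 0.000522) and -0.59 ± 0.19 in WT mice (adjusted p = 0.0686). As an average fold change over the treated animals, this was -7.63 ± 1.92 in PXR-KO (SD, n = 5) and -1.54 ± 0.374 in WT animals. The difference of the responses was 2.30 ± 0.29 (95% interval 1.69 to 2.92, adjusted p = 5.92e-05).

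The second Fabp5 probe set, 1416022_at, gave the same order with a larger fall. Treated PXR-KO animals read -4.60, -4.77, -4.68, -3.43 and -2.95, again all below their vehicle animals, which spanned -0.36 to 0.39. Treated WT animals read -0.54, -0.91, -0.40, -0.73 and -1.18 beside WT vehicle values of -0.09, 0.28, 0.17, 0.34 and -0.72. Replicates 4 and 5 of the treated PXR-KO group thus fell least on both probe sets, and WT vehicle replicate 5 was the lowest of its group on both.

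In the 10 arrays of each genotype, 1416022_at ranked 2 and 1416021_a_at ranked 9 from the lowest difference among 45037 probe sets in PXR-KO mice. All 5 treated animals of each genotype were more than 1.25-fold below the vehicle mean on both probe sets, a threshold that 2 of the 5 vehicle animals of each genotype also passed in one direction or the other. The WT call of 1416022_at (-0.75 ± 0.22, adjusted p = 0.0496) was kept in only 2 of the 10 fits that leave out 1 animal, with adjusted p from 0.0103 to 0.107. It passed only without WT vehicle replicate 5 or without WT CMP013 replicate 3. The fall in PXR-KO mice and the difference were kept without any 1 animal.

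**Figure D2:**
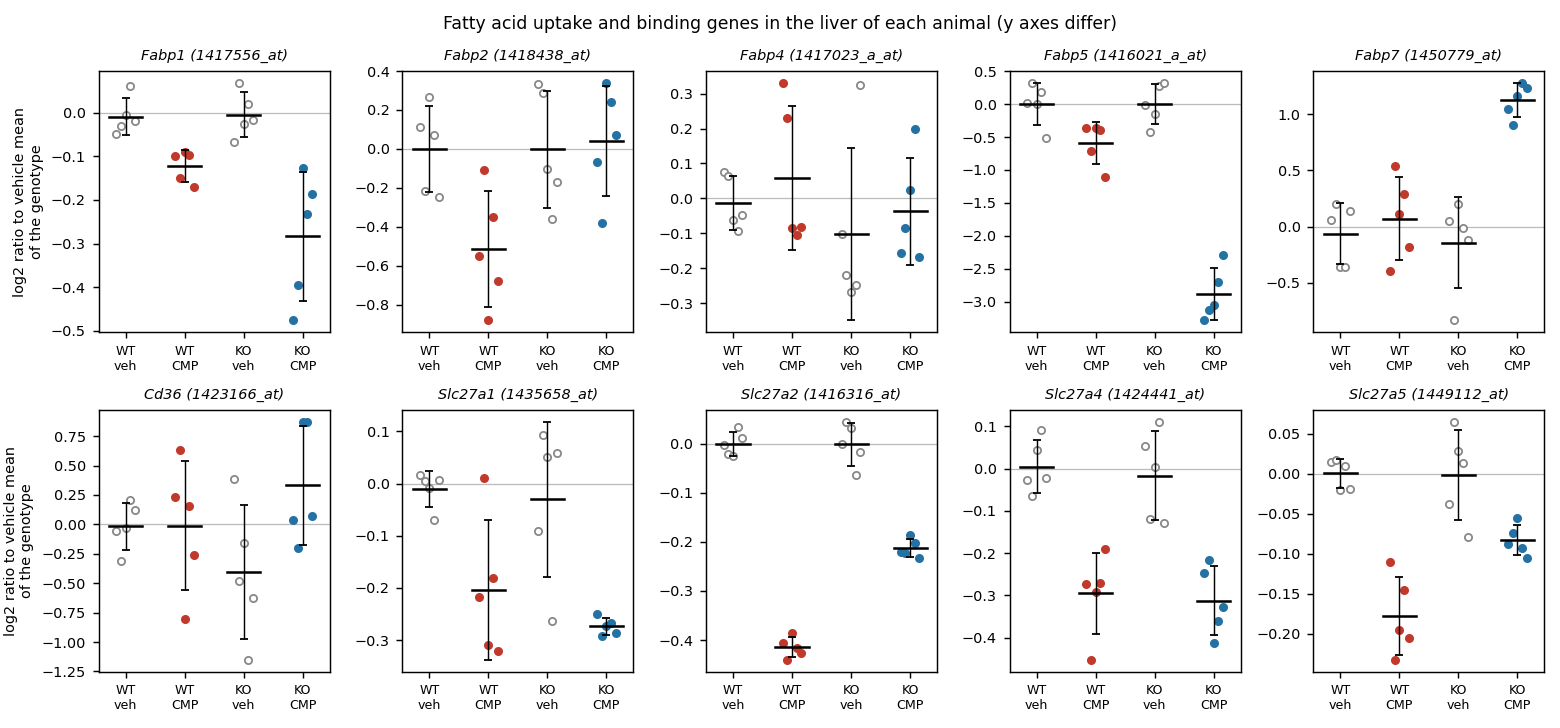
Log2 ratio to the vehicle mean of the same genotype (y axes, which differ in range between panels) of each animal in the 4 groups, for the leading probe set of each of the 10 genes. Each point is 1 animal, wide lines are group means and bars are ± 1 SD (veh, vehicle; CMP, CMP013; KO, PXR-KO); treated PXR-KO animals lie at -3.27 to -2.29 for Fabp5 and at 0.91 to 1.28 for Fabp7, apart from their vehicle animals.

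Fabp7, the brain-type binding protein, moved the other way in PXR-KO mice. Treated PXR-KO animals read 1.04, 0.91, 1.17, 1.28 and 1.24 and their vehicle animals 0.05, -0.84, 0.20, -0.01 and -0.12. All 5 treated animals lay above all vehicle animals, a pattern that 4.07% of all probe sets showed in PXR-KO mice. The rise was 1.27 ± 0.18 (limma, adjusted p = 0.0072). The average fold change, taken from the treated ratios alone, was 2.19 ± 0.227 (SD, n = 5). It leaves out that the vehicle animals had a mean log2 ratio of -0.14.

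Treated WT animals read -0.40, 0.54, 0.11, 0.29 and -0.18 for Fabp7 and WT vehicle animals 0.06, 0.20, -0.36, -0.36 and 0.14. These groups overlapped over most of their range, and the WT difference was 0.13 ± 0.20 (95% interval -0.30 to 0.57, adjusted p = 0.72). The responses differed by -1.14 ± 0.27 (adjusted p = 0.0118, and 0.0626 with quantile-normalised ratios). Both the PXR-KO rise and the difference were kept without any 1 animal, with adjusted p of at most 0.0249.

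Some macrophage markers passed the test in each genotype, higher in PXR-KO mice and lower in WT mice. Of 12 measured macrophage markers, 3 rose in PXR-KO mice by limma. They were the scavenger receptor Marco (4.22 ± 0.64, adjusted p = 0.00894), the lysosomal protein Cd68 (1.11, adjusted p = 0.00381) and Gpnmb (1.88, adjusted p = 0.0291). For Marco, treated PXR-KO animals read 2.51 to 3.72, and their vehicle animals spread from -2.38 to 1.47. In WT mice 3 fell, Csf1r (-0.58, adjusted p = 0.00723), Clec4f (-0.39, adjusted p = 0.0322) and Vsig4 (-0.46, adjusted p = 0.0205). The mean log2 ratio of the 12 was 0.32 to 0.63 in treated and -0.41 to 0.52 in vehicle PXR-KO animals, and -0.34 to -0.03 in treated and -0.36 to 0.17 in vehicle WT animals. The other 9 did not pass in PXR-KO mice and ranged from -0.32 (Trem2) to 0.37 (Cd5l). Csf1r, Clec4f and Vsig4, the 3 that fell in WT mice, read -0.19, -0.28 and 0.23 in PXR-KO mice. The part of macrophages in the Fabp7 result was not tested.

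Fabp1, the main binding protein of hepatocytes, is measured by probe sets that differ in size of change. With the leading one, 1417556_at, treated WT animals read -0.10, -0.15, -0.09, -0.10 and -0.17 and WT vehicle animals -0.05, -0.03, -0.01, 0.06 and -0.02. Treated PXR-KO animals read -0.48, -0.40, -0.13, -0.23 and -0.19, with vehicle animals between -0.07 and 0.07. Treated animals lay below all vehicle animals in both genotypes, yet neither difference passed the test (WT -0.11 ± 0.069, adjusted p = 0.335; PXR-KO -0.28 ± 0.091, adjusted p = 0.125).

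The second probe set of Fabp1, 1448764_a_at, read -0.50, -0.23, -0.24, -0.77 and -0.50 in treated and -0.13, -0.01, -0.09, 0.02 and 0.22 in vehicle WT animals. Its WT fall of -0.45 ± 0.12 passed (adjusted p = 0.0356, average fold change -1.38 ± 0.218), and the groups did not overlap. In PXR-KO mice it read -0.22 ± 0.12 (adjusted p = 0.333) with overlapping groups. The WT call was kept in only 2 of the 10 fits that leave out 1 animal, those without WT CMP013 replicate 2 or 3, with adjusted p from 0.0338 to 0.0809. The difference of the responses did not pass for either probe set (0.17 and -0.23, adjusted p = 0.317 and 0.417).

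Fabp2, the intestinal binding protein, had treated WT values of -0.55, -0.11, -0.88, -0.35 and -0.68 and WT vehicle values of 0.11, -0.21, 0.27, 0.07 and -0.25. Replicate 2 of the treated animals lay inside the vehicle range, and the WT difference of -0.51 ± 0.16 did not pass (adjusted p = 0.0619). Of the 10 fits that leave out 1 animal, it passed only in that without this replicate, with adjusted p from 0.0305 to 0.134. In PXR-KO mice the groups overlapped throughout (0.04 ± 0.18, adjusted p = 0.92), and the responses differed by -0.56 ± 0.24 (adjusted p = 0.162).

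Fabp4, the binding protein of adipocytes and capillary endothelium, gave no call with any of its 4 probe sets in either genotype or for the difference (limma; unadjusted p under 0.05 only for 1425809_at, in WT mice and for the difference). The leading probe set, 1417023_a_at, differed by 0.07 ± 0.11 in WT mice (95% interval -0.17 to 0.31) and by 0.06 ± 0.13 in PXR-KO mice. The probe set that stood apart was 1425809_at, with treated WT values of -0.37, -0.19, -1.70, -1.42 and -1.17 and WT vehicle values of -0.39, 0.26, 0.23, -0.44 and 0.09. Only 3 of its 5 treated WT animals lay below the vehicle range, and its difference of -0.92 ± 0.30 had an adjusted p of 0.0702. In PXR-KO mice this probe set read 0.22 (adjusted p = 0.78), and -0.16 without the 4 vehicle animals. Endothelial markers, as a background to Fabp4 and Cd36, fell in 4 of 9 cases in WT mice, where the mean of the 9 was -0.44 to -0.32 in treated and -0.14 to 0.13 in vehicle animals. In PXR-KO mice the mean was -0.12 to 0.20 in treated and -0.09 to 0.09 in vehicle animals, with Lyve1 higher (1.12) and Kdr lower (-0.41). Their part in the Fabp4 and Cd36 values was not tested.

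Cd36, a receptor for long-chain fatty acids whose gene is a known target of PXR in mouse liver, also had no call (limma; unadjusted p under 0.05 for 1450883_a_at in WT mice and for 1423166_at and 1450883_a_at in PXR-KO mice). With 1450883_a_at, treated WT animals read 0.58, 1.01, -0.07, 0.68 and 0.48 and WT vehicle animals -0.03, -0.32, 0.03, 0.15 and 0.17. Apart from replicate 3, the treated WT animals were above all vehicle animals, and the difference was 0.54 ± 0.19 (adjusted p = 0.0888).

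The PXR-KO vehicle animals varied widely for Cd36. With 1450883_a_at they read 0.82, -0.31, 0.08, -0.79 and -0.21, beside treated values of 0.43, 0.10, 1.33, 1.33 and 0.60. Treated replicates 3 and 4 were above every vehicle animal and the others were not, and the difference was 0.84 ± 0.33 (adjusted p = 0.188). The leading probe set, 1423166_at, gave 0.00 ± 0.24 in WT mice (95% interval -0.53 to 0.54) and 0.74 ± 0.31 in PXR-KO mice (adjusted p = 0.217), where the vehicle mean itself was -0.41 and the treated mean 0.33. For all 3 probe sets the difference of the responses was negative without passing, from -0.73 to -0.30. Without the 4 vehicle animals that stand apart, it was -0.39 for 1423166_at but turned positive for 1450883_a_at (0.071) and 1450884_at (0.17). The PXR-KO differences were then 0.46, 0.53 and 0.21.

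Slc27a2, the transport protein and very long-chain acyl-CoA synthetase of hepatocytes, varied little between animals of a group. Treated WT animals read -0.41, -0.44, -0.39, -0.42 and -0.43 and WT vehicle animals 0.00, -0.02, -0.02, 0.03 and 0.01. Treated PXR-KO animals read -0.22, -0.22, -0.19, -0.20 and -0.23 and PXR-KO vehicle animals 0.00, 0.04, 0.03, -0.06 and -0.02. In both genotypes the treated animals were below all vehicle animals and close to each other.

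The WT fall of Slc27a2 was -0.41 ± 0.066 (adjusted p = 0.0029), an average fold change of -1.33 ± 0.019 (SD, n = 5). The PXR-KO value was -0.21 ± 0.070 (adjusted p = 0.128), and the difference of the responses was -0.20 ± 0.075 (95% interval -0.36 to -0.04, adjusted p = 0.0954). The SE is larger than the animals' own spread because limma draws the variance of each probe set toward that of all probe sets. The WT call was kept without any 1 animal (adjusted p up to 0.0102), but not with quantile-normalised ratios (adjusted p = 0.0537).

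Slc27a4, a widely expressed transport protein with acyl-CoA synthetase activity, had nearly equal differences in the 2 genotypes. Treated WT animals read -0.27, -0.45, -0.29, -0.27 and -0.19 and WT vehicle animals -0.03, -0.06, 0.04, 0.09 and -0.02. Treated PXR-KO animals read -0.25, -0.22, -0.41, -0.36 and -0.33 and PXR-KO vehicle animals 0.05, -0.12, 0.00, 0.11 and -0.13. Treated animals were below all vehicle animals in both genotypes. The WT fall of -0.30 ± 0.080 passed (adjusted p = 0.0317) and the PXR-KO value of -0.30 ± 0.085 did not (adjusted p = 0.0884). The difference of the responses was at most 0.22 in size by its 95% interval of -0.22 to 0.21. The WT call was kept in only 2 of the 10 fits that leave out 1 animal, those without WT vehicle replicate 2 or WT CMP013 replicate 5, with adjusted p from 0.0293 to 0.0750.

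Slc27a5, the liver transport protein that also forms bile acid CoA esters, read -0.11, -0.23, -0.20, -0.14 and -0.21 in treated and 0.02, 0.02, -0.02, 0.01 and -0.02 in vehicle WT animals. These groups did not overlap, but the difference of -0.18 ± 0.069 did not pass (adjusted p = 0.119). In PXR-KO mice it was -0.08 ± 0.071 (adjusted p = 0.566). Across both genotypes, 5 of the 18 probe sets had all treated animals below all vehicle animals in WT mice (background 6.96%, beside 7.78% for all treated animals above, which 0 of the 18 showed) and 5 in PXR-KO mice (background 3.5%). Those in WT mice were both probe sets of Fabp1 and those of Slc27a2, Slc27a4 and Slc27a5. Those in PXR-KO mice were the leading probe set of Fabp1, both of Fabp5, and those of Slc27a2 and Slc27a4.

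Slc27a1, the transport protein of muscle and adipose tissue, had differences of -0.19 ± 0.085 in WT livers (adjusted p = 0.172) and of -0.24 ± 0.090 in the knockout (adjusted p = 0.166) with its leading probe set, 1435658_at. Treated PXR-KO animals lay within a narrow span of -0.29 to -0.25, but vehicle replicate 4 of that genotype, at -0.26, fell inside it. Its second probe set, 1422811_at, read -0.45, -0.56, -1.53, -0.26 and -0.81 in treated WT animals and -0.03, -0.28, 0.22, 0.15 and -0.08 in WT vehicle animals. Treated replicate 4 lay inside the vehicle range, and the difference of -0.72 ± 0.22 had an adjusted p of 0.058. In PXR-KO mice that probe set read 0.13 (adjusted p = 0.777), and -0.18 without the 4 vehicle animals.

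The sequence ahead of the start site is printed for the 3 genes whose single probe set was called in 1 comparison at least, Fabp7, Slc27a2 and Slc27a4, from RefSeq on GRCm38.p6. Each run holds the 250 bases upstream of the start on the plus strand, 5′ to 3′, at chr10:57784673-57784922 for Fabp7, chr2:126552774-126553023 for Slc27a2 and chr2:29802384-29802633 for Slc27a4. Capitals mark AGGTCA or its reverse complement TGACCT, the half-site letters that many nuclear receptors are known to bind.
Fabp7: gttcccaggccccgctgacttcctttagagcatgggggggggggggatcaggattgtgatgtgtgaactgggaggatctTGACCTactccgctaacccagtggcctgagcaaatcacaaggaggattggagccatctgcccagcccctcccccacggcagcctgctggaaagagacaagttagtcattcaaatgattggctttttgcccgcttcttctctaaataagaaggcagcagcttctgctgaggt
Slc27a2: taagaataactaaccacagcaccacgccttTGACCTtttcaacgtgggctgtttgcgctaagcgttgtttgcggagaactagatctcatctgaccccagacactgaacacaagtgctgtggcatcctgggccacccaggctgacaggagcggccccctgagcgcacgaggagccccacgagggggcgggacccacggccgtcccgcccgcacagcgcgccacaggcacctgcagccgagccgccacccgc
Slc27a4: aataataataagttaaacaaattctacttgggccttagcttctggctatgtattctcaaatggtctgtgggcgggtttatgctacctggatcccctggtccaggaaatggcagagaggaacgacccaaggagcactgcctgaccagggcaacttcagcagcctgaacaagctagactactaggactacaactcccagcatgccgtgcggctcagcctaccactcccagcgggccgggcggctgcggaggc

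Fabp7 and Slc27a2 hold the half-site letters once each in this window and Slc27a4 does not hold them. Of the 10 genes, 7 matched an entry of the promoter table (all but Fabp4, Fabp5 and Slc27a5), with 9 windows because Slc27a1 has 3 starts. Searched on both strands, AGGTCA was in 4 of these 9 windows (those of Fabp1, Fabp7, Cd36 and Slc27a2) and in 14.0% of all 32851 promoter windows. A direct repeat of AGGTCA with 1 base between the copies was in 0 of the 9 windows and in 0.0335% of all. GGGCGG, the GC box, was in windows of 4 genes, where Slc27a1 had 3 windows to match, and in 32.7% of all windows. The first is a count of genes and the second a share of windows. TATAAA was in the window of Fabp1 alone and in 12.4% of all. A match is a description of the letters and does not say that a receptor binds there.

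Fabp5 lies on chromosome 3 in a cluster of binding protein genes, with Pmp2, Fabp9, Fabp4 and Fabp12 following it in that order among protein-coding genes. None of these neighbours was called in any comparison by their leading probe sets. In PXR-KO mice Pmp2 read 0.13 (adjusted p = 0.858), Fabp9 read 0.62 (adjusted p = 0.45) and Fabp12 read -0.19 (adjusted p = 0.616), beside -2.89 for Fabp5. The 6 measured genes of the same families outside the 10 (Fabp3, Fabp6, Fabp9, Fabp12, Pmp2 and Slc27a3) gave 0 calls in each of the 3 comparisons by limma, with 1 at an unadjusted p under 0.05 in each.

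The other genes of fatty acid handling were described from lists, by how many passed. Each gene was read by its leading probe set alone, and its other probe sets were not examined. Among 10 acyl-CoA synthetases and carriers, which activate fatty acids or bind their CoA esters, 2 rose and 1 fell in WT mice and 1 rose and 1 fell in PXR-KO mice. Acsl3, a synthetase of lipid droplets, rose by 0.94 in WT livers (adjusted p = 0.00336) and by 0.74 in the knockout (adjusted p = 0.0257). Acsl5, a mitochondrial and reticular synthetase, fell in PXR-KO mice (-0.71, adjusted p = 0.0115) and read 0.03 in WT mice, and this difference passed (0.75, adjusted p = 0.000952). Acsl4 rose in WT mice (0.49, adjusted p = 0.0384) and the acyl-CoA binding protein Acbd4 fell there (-0.47, adjusted p = 0.0152). Dbi, the main cytosolic acyl-CoA carrier, passed for the difference alone (0.40, adjusted p = 0.0105). The list's median difference was -0.03 for WT and -0.10 for PXR-KO mice, beside -0.01 and 0.01 over all probe sets.

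**Figure D3:**
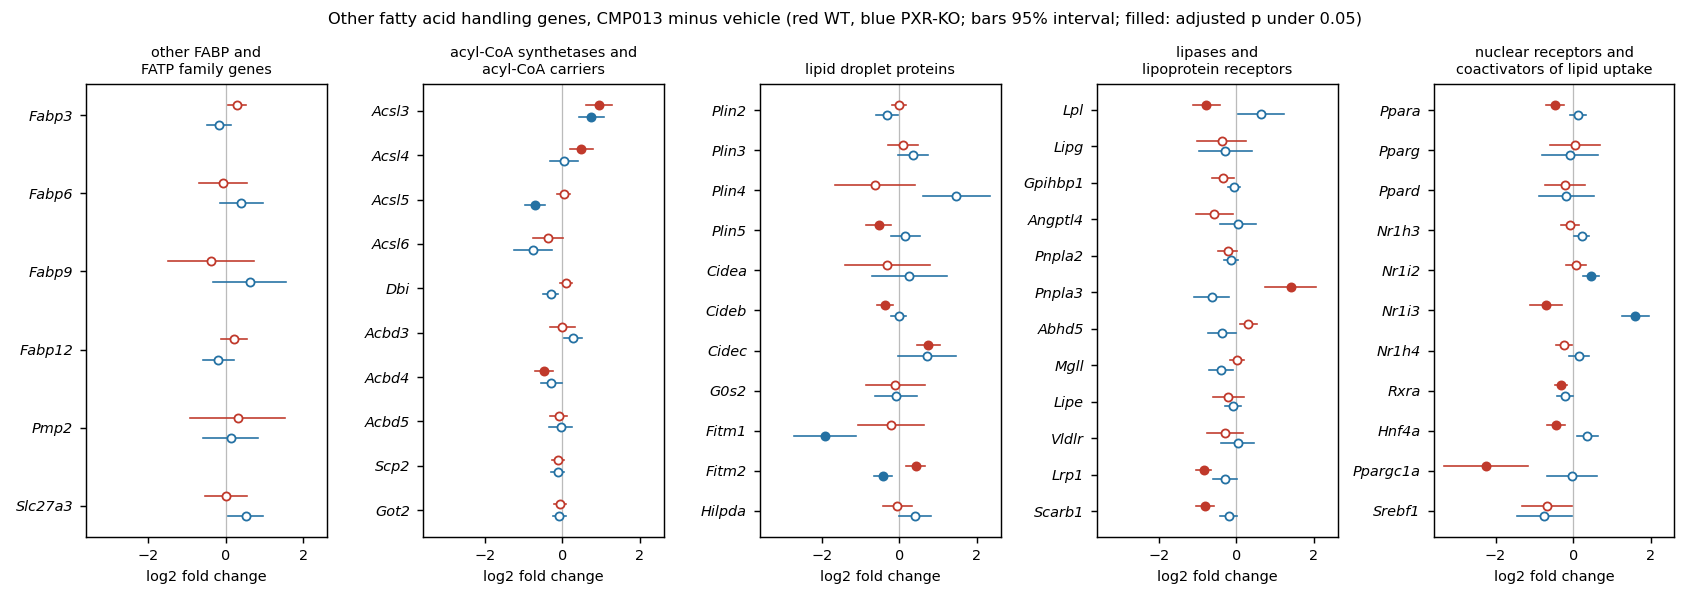
Log2 difference between CMP013 and vehicle animals for the other genes of fatty acid handling, by list, in WT (red) and PXR-KO mice (blue). Each point is the leading probe set of 1 gene with its 95% interval, filled where the adjusted p is under 0.05; Acsl3 and Fitm2 are filled in both genotypes, Fitm2 on opposite sides of 0.

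Of 11 lipid droplet proteins, 2 rose and 2 fell in WT mice and 2 fell in PXR-KO mice. Cidec, which promotes droplet fusion, rose in WT mice (0.75, adjusted p = 0.00555), and read 0.72 (adjusted p = 0.264) in PXR-KO mice. Fitm2, needed for droplet formation at the endoplasmic reticulum, rose in WT mice (0.42, adjusted p = 0.0296) but fell in the knockout (-0.42, adjusted p = 0.0474), with a difference of 0.84 (adjusted p = 0.00074). The droplet proteins Plin5 (-0.53, adjusted p = 0.0347) and Cideb (-0.36, adjusted p = 0.0254) fell in WT mice. Fitm1 fell in PXR-KO mice (-1.92, adjusted p = 0.0216), and Plin4 passed for the difference alone (-2.11, adjusted p = 0.0383). Its median was -0.10 for WT and 0.15 for PXR-KO mice.

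Of 12 lipases and lipoprotein receptors, 1 rose and 3 fell in WT mice, and 0 passed in PXR-KO mice (limma; 4 at an unadjusted p under 0.05). The lipoprotein receptors Lrp1 (-0.84, adjusted p = 0.000246) and Scarb1 (-0.80, adjusted p = 0.000971) and the lipoprotein lipase Lpl (-0.77, adjusted p = 0.00911) fell in WT mice. The triglyceride hydrolase Pnpla3 rose in WT mice (1.41, adjusted p = 0.0111) and differed between responses by 2.04 (adjusted p = 0.0015). Abhd5, the activator of adipose triglyceride lipase, passed for the difference alone (0.68, adjusted p = 0.0231). The 3 that fell also passed the test of the difference, Lpl by -1.41 (adjusted p = 0.00728), Scarb1 by -0.60 (adjusted p = 0.00739) and Lrp1 by -0.56 (adjusted p = 0.0301). The list's median was -0.32 for WT and -0.16 for PXR-KO mice.

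Of 11 nuclear receptors and coactivators, 5 fell in WT mice and 2 rose in PXR-KO mice. Ppara, the receptor that fatty acids activate to raise their oxidation, fell in WT mice (-0.48, adjusted p = 0.0146) and differed between responses by -0.60 (adjusted p = 0.00723). The coactivator Ppargc1a (-2.24, adjusted p = 0.0129), the hepatocyte factor Hnf4a (-0.45, adjusted p = 0.0199) and the common partner receptor Rxra (-0.31, adjusted p = 0.0154) also fell in WT mice. Of these 3, Ppargc1a and Hnf4a passed the test of the difference (-2.22 and -0.82, adjusted p = 0.0211 and 0.00202). For Ppargc1a the treated WT animals spread widely, from -3.78 to -0.50, beside -0.24 to 0.17 in WT vehicle animals. The xenobiotic receptor Nr1i3 fell in WT mice (-0.70, adjusted p = 0.0283) but rose in the knockout (1.61, adjusted p = 0.00138), a difference of -2.31 (adjusted p = 8.25e-06). Nr1i2, which encodes PXR, differed by 0.08 in WT livers (adjusted p = 0.747) and rose by 0.46 in the knockout (adjusted p = 0.025). This value within the knockout group is a ratio to knockout vehicle animals, and the probe set may lie outside the deleted part of the gene, so it does not check the labels. The median of these 11 genes was -0.31 for WT and 0.12 for PXR-KO mice.

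The genes whose 20 values lay closest to those of Fabp5 (Euclidean distance in log2 units, where Fabp5 itself is 6.73 from 0) were Mrnip (2.05), 1810008I18Rik (2.79) and Acacb (2.97). Mrnip fell in both genotypes (WT -1.06, PXR-KO -2.65). Acacb, the acetyl-CoA carboxylase that restrains fatty acid entry into mitochondria, fell in PXR-KO mice (-2.78, adjusted p = 0.00979) and read 0.39 (adjusted p = 0.206) in WT mice. The closest to Fabp7 (2.85 from 0) were Evl (1.05), Sfpq (1.16) and the adhesion molecule Vcam1 (1.23), which rose in PXR-KO mice by 1.28, 0.89 and 1.26. Each of these genes was chosen for its likeness on these arrays.

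**Figure D4:**
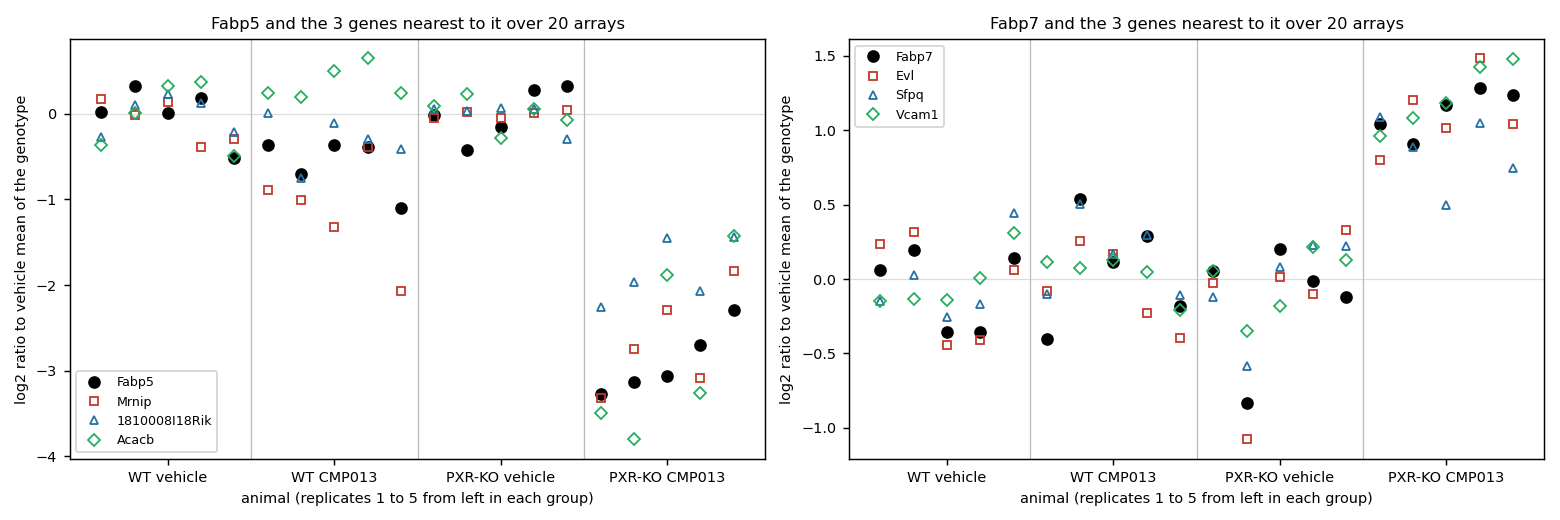
Log2 ratio of each animal for Fabp5 and Fabp7 (black) and the 3 genes closest to each by Euclidean distance over the 20 arrays (open symbols), by group. Points are single animals; the genes nearest to Fabp5 share low values in treated PXR-KO animals, and those nearest to Fabp7 share values above 0 there.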

How the data were processed

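Livers of 20 mice were profiled on Affymetrix arrays, 1 array per animal, and the deposited log10 ratios were made by the authors in Rosetta Resolver 7.2 as each animal over the mean of the 5 vehicle animals of its genotype. They were converted to log2 and used without further normalization, detection filter or intensities, so signal over background was not analysed here. Symbols come from the platform annotation, in which 34945 probe sets name 1 gene, 932 several and 9160 none. A leading probe set names no other gene, has no _s_ or _x_ mark if possible, and has the smallest standard deviation within vehicle groups. Tests used lmFit and eBayes of limma (version 3.58.1, under R 4.3.3), with p adjusted by Benjamini-Hochberg across the 45037 probe sets and a limit of 0.05, per genotype on 10 arrays and between responses on 20, and the script was tested on simulated data. The genes and lists were chosen with earlier results of these data known. Named genes are all members, up to 3 genes per list and comparison with the smallest adjusted p, of which the text gives those that passed, and the 3 nearest genes of members that passed the test of the difference. Plin5, Abhd5 and the cell type markers given by name fall outside this rule and were chosen after their values were seen. Alternatives were scaling, variance model, array weights, replicate block, 4 vehicle animals left out, 1 fit for all groups, the mean over probe sets, and each animal left out. Files were read in R with the package data.table, version 1.17.8, and summaries and plots made in Python 3.11.15 (pandas 2.3.3, numpy 2.4.6, matplotlib 3.10.9).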

Additional observations from a re-analysis of the deposited data

Results flagged for a closer look

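The responses of the 2 genotypes differed for Fabp5 by 2.30 (1416021_a_at, adjusted p = 5.92e-05) and 3.34 (1416022_at, adjusted p = 9.63e-05) and for Fabp7 by -1.14 (adjusted p = 0.0118), each as WT minus PXR-KO response in limma. Among 72 groups of 5 animals (18 probe sets in 4 groups), 2 held an animal far from the rest, where chance gives about 1 in 20 groups. For Fabp4 (1417023_a_at) PXR-KO vehicle replicate 5 read 0.33 and the others -0.27 to -0.10. For Slc27a1 (1435658_at) WT vehicle replicate 4 read -0.069 and the others -0.0086 to 0.016.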

How the results depend on the processing

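The 4 probe sets called in WT mice became 0 with quantile-normalised ratios (8 at an unadjusted p under 0.05 in limma), 1 under a block for replicate numbers (replicate block) and 1 without the 4 vehicle animals named apart in earlier results (WT 3 and 4, PXR-KO 2 and 4), and 1 to 4 without 1 animal. Over the whole table the WT calls went from 6480 to 1773, 3026 and 3308 under the first 3 of these settings. The 3 called in PXR-KO mice became 0 with trend and robust variances, where no probe set of the table was called (Fabp5 and Fabp7 at an adjusted p of 0.0536; 9 of 18 at an unadjusted p under 0.05), and 6 with all 4 groups in one fit (1645 to 3049 over the table), and stayed 3 without any 1 animal. That fit added Fabp1, Slc27a2 and Slc27a4 in PXR-KO mice (adjusted p = 0.0213, 0.0211 and 0.0184). The 3 called for the difference were 2 with quantile-normalised ratios and 3 to 4 without 1 animal. Of 215 leading values under other settings, 192 kept direction and call, 8 lost and 5 gained the call, and 10 turned direction, none of them called. Of 400 values without 1 animal, 365, 8, 2 and 25 did so. The cause was not tested.

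The 10 that turned were, with the mean over probe sets, Fabp4 in WT mice (-0.16) and the differences of Fabp1 (-0.032), Fabp4 (-0.36) and Slc27a1 (-0.40). Without the 4 vehicle animals they were Fabp7 in WT mice (-0.062), Fabp4 in PXR-KO mice (-0.023) and the difference of Slc27a4 (0.030). With a common median or quantile-normalised ratios they were the difference of Slc27a4 (0.012 and 0.046) and, with the latter, that of Fabp4 (-1.2e-05). Without 1 animal, values spanned 0 for Cd36 in WT mice (-0.16 to 0.20), Fabp2 in PXR-KO mice (-0.046 to 0.15) and the differences of Fabp4 (-0.10 to 0.07), Slc27a1 (-0.0041 to 0.11) and Slc27a4 (-0.036 to 0.035). Of the probe sets that do not lead, those of Fabp4, Cd36 and Slc27a1 also held values that turned, none of them called. Replicate numbers were not taken to pair the animals. Same-numbered animals correlated at -0.24 to 0.065 within a genotype and at -0.17 to 0.18 across genotypes. Animals with different numbers were not set beside them, so these values do not decide whether the numbers pair animals. The replicate block kept the PXR-KO calls (3) and left Slc27a2 in WT mice at an adjusted p of 0.051. With no intensities, signal over background and thus the precision of dim probe sets is unknown.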

Other observations

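Stellate cell, adipocyte, skeletal muscle and cholangiocyte markers were measured too. In WT mice 2 of 7 stellate cell markers were lower, beside 6.72% of all probe sets. Of 6 adipocyte markers 2 were called in WT mice, Cidec higher (0.75) and Pck1 lower (-0.64), beside 14.4% of all probe sets. Cidec is also counted among the lipid droplet proteins. Skeletal muscle markers gave 0 calls of 5, with 0 at an unadjusted p under 0.05 in WT mice and 1 in PXR-KO mice. Cholangiocyte markers gave 0 calls of 4 by limma and 0 at an unadjusted p under 0.05. In PXR-KO mice 0 of the stellate and adipocyte markers were called by limma, with 1 and 2 at an unadjusted p under 0.05.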
